A study of Mus musculus with 21 samples.

Results

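Claudins are membrane-spanning proteins that seal the space between neighboring epithelial cells at the tight junction and set which ions can pass through it. Some of them form paracellular channels, as Cldn2 and Cldn15 do for cations, and others tighten the barrier. In the intestine the balance between the kinds of claudin differs between crypt and villus and between small intestine and colon, and Cldn2 and Cldn12 have been described as calcium-permeable claudins that respond to vitamin D. The 9 claudin genes examined here were Cldn1, Cldn2, Cldn3, Cldn4, Cldn7, Cldn8, Cldn12, Cldn15 and Cldn23, members of the family that gut epithelium is known to express. They need not be all such members. They were chosen by name, out of 22380 protein-coding genes of the mm9 annotation, and each was given a window of its gene body plus 30 kb on each side, within which every deposited vitamin D receptor (VDR) and ATAC-seq peak was collected. On mm9, Cldn3 (chr5:135462084-135463342, plus strand) and Cldn4 (chr5:135420996-135422804, minus strand) are neighbors, and Cldn12 (chr5:5505109-5514958, minus strand) and Cldn15 (chr5:137442486-137451728, plus strand) lie on the same chromosome. Cldn1 (chr16:26356728-26371927) and Cldn8 (chr16:88561073-88563428) lie on the minus strand of chromosome 16, Cldn7 at chr11:69778281-69781387 (plus strand), Cldn23 at chr8:36887766-36889613 (minus strand) and Cldn2 at chrX:136335367-136345925 (plus strand).

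The data were 12 VDR ChIP-seq samples and 9 ATAC-seq samples from epithelium of C57BL/6J mice, in 3 compartments: whole colon epithelium, crypts of the proximal small intestine (SI crypt) and villi of the same segment (SI villus). VDR is the nuclear receptor for 1,25(OH)2D3, the hormonal form of vitamin D, and its binding was mapped 1 h after an intraperitoneal injection of 10 ng/g 1,25(OH)2D3 in 4 samples per compartment, from mice aged 4–6 weeks by the labels. ATAC-seq, which marks open chromatin by where a transposase can cut, was done on 3 samples per compartment from mice aged 90 days by the labels. The study describes the ATAC-seq mice as untreated, whereas the sample protocol text mentions hormone treatment, and it gives the ChIP-seq mice an older age than the labels do. There was no vehicle-injected ChIP-seq group among the samples used, and the VDR peaks describe occupancy after hormone, not a response to it. Crypts and villi were separated on a 70 µm filter and the colon mucosa was scraped off unfractionated, so colon holds its crypt and surface cells together. The labels do not tie samples to individual mice, and p-values therefore measure the spread between these samples. In bulk epithelium, a site occupied or open in few cells cannot be told apart from one weakly occupied or open in many.

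For orientation among the compartments, open chromatin within 1 kb of the transcription start site (TSS) was examined at marker genes. The epithelial genes Epcam and Cdh1 had a promoter ATAC-seq peak in every sample of every compartment. Lct, which encodes lactase, had one only in SI villus (2 of 3 samples), and the small intestinal factor Gata4 had one in SI crypt (2 of 3) and SI villus (3 of 3) but not in colon. Pdx1, the remaining small intestinal marker, had one in colon too (2 of 3 samples, against 3 of 3 in each SI compartment). The colon marker Car1 had no promoter peak in any compartment. The crypt marker Olfm4 had pooled promoter peaks in SI crypt and SI villus, and Lgr5 in all 3 compartments (0, 3 and 2 samples in colon, SI crypt and SI villus). Of the other-cell markers, Ptprc, Cd3e and Pecam1 had none, whereas Col1a1 had a pooled peak in all 3 compartments (called by 1, 2 and 1 samples) and Vim in SI crypt and SI villus (1 and 2 samples). The share that stromal cells had in the claudin peaks was not tested.

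Depth and list size differed between samples. The VDR samples held 10588783 to 17970894 mapped fragments and their own peak lists 1136 to 13381 peaks, and the ATAC-seq samples held 32767083 to 62692175 tags and 21269 to 57825 peaks. SI crypt VDR replicate 1 stood apart, because it kept the fewest fragments after duplicate removal (3100376) and yet had the longest list (13381 peaks). SI crypt VDR results are therefore given with and without it. ATAC-seq tags were extended by 102 bp in the pooled SI crypt list and by 157 bp in the pooled colon and SI villus lists. Differences in peak widths and counts between SI crypt and the others therefore cannot be told apart from that setting. Single-sample extensions were 152 to 164 bp in colon, 91 to 126 bp in SI crypt and 68 to 145 bp in SI villus. The part of this setting in single-sample fold enrichments and calls was not tested.

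Sequences at 7 VDR-binding sites are shown because they carry the strongest VDR peaks of Cldn15, Cldn3 and Cldn7, a Cldn3 site where open chromatin also differed between compartments, and both exact matches to the known VDR element. That element, DR3, is a direct repeat of a receptor-binding hexamer with a spacer of 3 bases. All sequences were read from the mm9 genome and are given 5′ to 3′ on the plus strand unless the minus strand is named, and capitals mark the 15-base stretch that matched the DR3 consensus best, where at least 10 of its 12 scored letters matched on either strand. Distances are in kb from the TSS of the named claudin, positive in the direction of transcription. The Cldn15 promoter and upstream sequences were shortened to leave out neighboring exon bases of Fis1, and of the Cldn15 site 8.18 kb into the gene only the matching element is shown.
Cldn15 −0.34 kb, chr5:137442105-137442250: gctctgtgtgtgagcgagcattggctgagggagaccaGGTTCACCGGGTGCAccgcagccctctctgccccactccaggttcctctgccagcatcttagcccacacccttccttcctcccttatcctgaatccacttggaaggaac
Cldn15 −3.88 kb, chr5:137438574-137438709: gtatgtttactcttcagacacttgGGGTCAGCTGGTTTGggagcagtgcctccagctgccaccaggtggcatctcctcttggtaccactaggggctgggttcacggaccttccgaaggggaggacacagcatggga
Cldn15 +8.18 kb, element at chr5:137450647-137450661, minus strand: GGGTCACAGGGGTCA
Cldn3 +16.31 kb, chr5:135478297-135478496: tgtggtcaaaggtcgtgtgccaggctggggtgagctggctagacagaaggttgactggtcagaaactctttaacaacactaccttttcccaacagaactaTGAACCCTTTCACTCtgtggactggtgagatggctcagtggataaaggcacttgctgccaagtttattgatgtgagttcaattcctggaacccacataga
Cldn3 +15.14 kb, chr5:135477126-135477325: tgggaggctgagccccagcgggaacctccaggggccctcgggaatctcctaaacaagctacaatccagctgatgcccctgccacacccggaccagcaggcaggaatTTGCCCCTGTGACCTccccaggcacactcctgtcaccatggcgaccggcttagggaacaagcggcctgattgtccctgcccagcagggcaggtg
Cldn7 +4.21 kb, chr11:69782390-69782589: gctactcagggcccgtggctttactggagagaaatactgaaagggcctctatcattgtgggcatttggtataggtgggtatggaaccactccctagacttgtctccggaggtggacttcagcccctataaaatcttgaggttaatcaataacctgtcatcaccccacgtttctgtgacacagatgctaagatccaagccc
Cldn2 −14.36 kb, chrX:136320905-136321104: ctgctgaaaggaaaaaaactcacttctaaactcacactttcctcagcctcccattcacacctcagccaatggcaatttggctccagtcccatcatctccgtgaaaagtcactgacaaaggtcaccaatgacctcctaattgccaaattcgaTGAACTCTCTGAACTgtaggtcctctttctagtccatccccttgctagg

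VDR-binding peaks lay in the windows of 7 of the 9 claudins for colon, 7 for SI crypt and 6 for SI villus. Across all 22380 genes a window of this kind held a VDR peak for 63.1%, 51.5% and 56.9% in the same order. No VDR peak lay near Cldn1 or Cldn8 in any compartment, and none lay near Cldn2 in SI villus. A peak within 1 kb of the TSS was found for 6 of 9 claudins in each compartment, against 22.2%, 17.6% and 24.2% of all genes. The promoter set was the same in all 3 compartments: Cldn3, Cldn4, Cldn7, Cldn12, Cldn15 and Cldn23.

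In total, the claudin windows held 38 colon, 24 SI crypt and 25 SI villus VDR peaks. Summed gene by gene, the density was 6.55, 4.03 and 4.37 peaks per 100 kb of window, against 1.89, 1.03 and 1.49 per 100 kb over the windows of all protein-coding genes. The windows of Cldn3 and Cldn4 overlap, and a peak in the overlap was counted once in the totals but for each gene in the densities. A TSS of the 9 claudins was nearest for 26 of the 38 colon, 16 of the 24 SI crypt and 15 of the 25 SI villus peaks. The windows also held TSSs of other genes, 6 at Cldn7 and 3 at Cldn15. All genes were not matched to the claudins for expression or neighboring TSSs, here, at the promoters above and for ATAC-seq below. The part of either in these contrasts was not tested. With the same number of strongest peaks taken from each compartment's list, each compartment had 24 claudin VDR peaks, so the higher colon count moves with the longer colon list. In 4 ChIP-seq samples per compartment, 21 of the 38 colon peaks, 21 of the 24 SI crypt peaks and 19 of the 25 SI villus peaks were called again by at least 1 single sample, where 49.2%, 64.6% and 50.4% of all pooled peaks were. Only 2, 0 and 2 claudin peaks were called by every sample (3.64%, 3.69% and 3.83% of all pooled peaks). SI crypt replicate 1 was alone in calling 12 of the 24 peaks of its compartment (42.2% over the genome), and without it 9 had a single-sample call (22.4%).

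**Figure D1:**
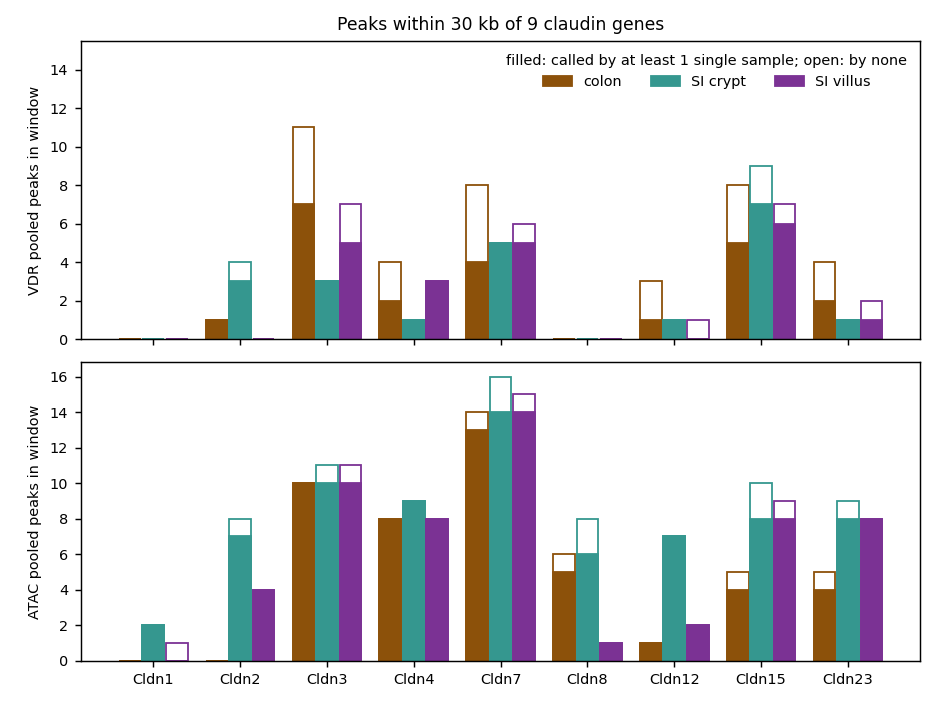
Number of pooled VDR (top) and ATAC-seq (bottom) peaks in the window of each claudin, with bars for colon, SI crypt and SI villus, whose filled part counts peaks called by at least 1 single sample. Cldn15, Cldn3 and Cldn7 hold most VDR peaks, Cldn1 and Cldn8 hold none, and Cldn2 holds 8 ATAC-seq peaks in SI crypt, 4 in SI villus and none in colon.

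By gene, the VDR peaks were concentrated at Cldn15, Cldn3 and Cldn7. Cldn15 had 8, 9 and 7 peaks in colon, SI crypt and SI villus, Cldn3 had 11, 3 and 7, and Cldn7 had 8, 5 and 6. Cldn4 had 4, 1 and 3, Cldn23 had 4, 1 and 2, and Cldn12 had 3, 1 and 1. Cldn2 had 1, 4 and 0, and it and Cldn15 were the 2 claudins with more pooled VDR peaks in SI crypt than in either other compartment. That order did not hold without SI crypt replicate 1. The SI crypt peaks called by another sample then numbered 4 at Cldn15, 2 each at Cldn3 and Cldn7, 1 at Cldn2 and 0 at Cldn4, Cldn12 and Cldn23, whereas peaks with a single-sample call numbered 5 in colon and 6 in SI villus at Cldn15 and 1 and 0 at Cldn2. Merged across compartments, the peaks formed 42 VDR sites, of which 14 (33.3%) were present in all 3 compartments, against 16.4% of all VDR sites of the series. A further 11 sites (26.2%) were present in colon only, against 36.5% of all sites. Of the 14 shared sites, the SI crypt peak had a call outside replicate 1 at Cldn15 −7.39, −3.88 and −0.34 kb. The others with such a call were Cldn3 +16.31 and +26.01 kb and Cldn7 +4.21 and +30.83 kb. The remaining shared sites rested in SI crypt on replicate 1 or on the pooled list alone. The share over all sites without replicate 1 was not computed.

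Cldn15, which forms a cation channel needed for paracellular sodium return in the small intestine, had the strongest VDR peak of the set. It lay upstream of the TSS, at −0.34 kb, in the intergenic stretch between Cldn15 and Fis1, a mitochondrial fission gene. Its −log10 q in the pooled lists, which states how unlikely the read pile-up is under the local background, reached 142 for SI villus, 98.7 for SI crypt and 64.4 for colon. The summits in the 3 compartments fell within 4 bp of each other, and the best DR3 stretch, which matched 11 of 12 letters, was centered 2 bp from the strongest summit. Pooled −log10 q also grows with depth. After duplicate removal the pooled VDR lists rested on 46166439 (colon), 25325174 (SI crypt) and 34583701 (SI villus) fragments. The pooled ATAC-seq lists rested on 84065934, 54803820 and 72892004 tags in the same order. At the −0.34 kb site colon had the most fragments and the lowest −log10 q. The part of depth in differences in pooled −log10 q between compartments, here and below, was not tested.

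In the single samples, the fold enrichment over background at the −0.34 kb site was 5.97, 3.73 and 5.36 in colon replicates 2, 3 and 4. It was 5.23, 11.7 and 4.05 in SI crypt replicates 1, 2 and 4, and 9.97 and 14.8 in SI villus replicates 1 and 2. The remaining samples had no peak there. The 2 villus values lay above every colon value, and the SI crypt values overlapped both. Fold enrichment could not be tested at this site, because it is recorded only where a peak was called. The pooled VDR interval did not overlap an ATAC-seq peak in any compartment, and the nearest one lay 39 bp away in SI villus, 109 bp in SI crypt and 1710 bp in colon.

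The other strong Cldn15 site lay at −3.88 kb, in an intron of Fis1. Its pooled −log10 q was 119 for colon, where it was the strongest claudin peak, 91.0 for SI villus and 47.9 for SI crypt, with all 3 summits within 1 bp. Fold enrichments were 5.77, 5.51 and 7.80 in colon replicates 2, 3 and 4, and 6.01, 3.96 and 3.36 in SI crypt replicates 1, 3 and 4. In SI villus they were 7.95, 10.0, 4.33 and 3.00, a mean of 6.32 ± 3.23 (SD, n = 4), and this was 1 of the 2 claudin peaks called by every villus sample. The ranges of the 3 compartments overlapped. The nearest ATAC-seq peak lay 55, 113 and 207 bp away in the order colon, SI crypt, SI villus, and the colon pair overlapped when MACS2's own intervals were used, an alternative added after the data were seen. The sequence at this site held a DR3 stretch with 10 of 12 letters, 5 bp from the summit, and a match to the CTCF motif on the plus strand. With colon replicate 1, which called no peak there, left out, colon and SI villus could be compared by limma, and the log2 difference in fold enrichment after centering of sample medians was 0.39 (SE 0.257; adjusted p = 0.412). With SI crypt replicate 2 left out, SI crypt and SI villus differed by 0.0047 on the same scale (SE 0.296; adjusted p = 0.996).

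Further upstream, at −7.39 kb, a site in a Fis1 intron that lay nearest to the Fis1 TSS had pooled −log10 q of 38.4, 53.6 and 45.8 in the order colon, SI crypt, SI villus. It overlapped an ATAC-seq peak in SI crypt and SI villus, and in colon the nearest ATAC-seq peak was 2318 bp away. Fold enrichment was 5.63, 3.38 and 4.63 in colon replicates 2, 3 and 4, 6.46, 7.53 and 5.29 in SI crypt replicates 1, 2 and 4, and 10.2, 5.53 and 3.55 in SI villus replicates 1, 2 and 3. The ranges of the 3 compartments overlapped, and SI crypt replicate 2 was the highest crypt sample here as it was at the promoter site. Inside the gene, the intronic site at +8.18 kb held 1 of the 2 exact DR3 elements of the set, 13 bp from the summit, at pooled −log10 q of 9.17 in colon and 20.6 in SI crypt. SI villus had no pooled peak there, although replicates 1 and 2 called it with 4.34- and 5.84-fold enrichment. A site downstream of the gene, at +10.26 kb, was strongest in SI villus (−log10 q 31.5) and lay nearest to the TSS of Plod3, a collagen-modifying enzyme.

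**Figure D2:**
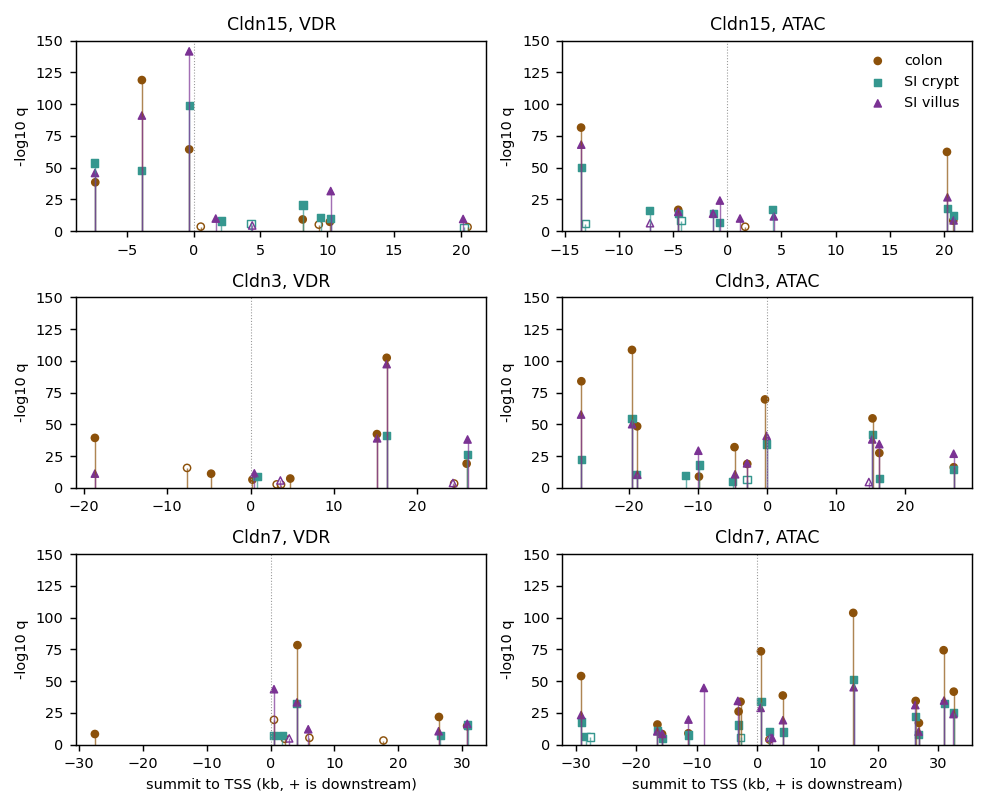
Pooled VDR (left) and ATAC-seq (right) peaks in the windows of Cldn15, Cldn3 and Cldn7, with the distance from summit to TSS in kb (positive downstream) on the x axis and −log10 q on the y axis; open symbols had no single-sample call. The Cldn15 peaks at −7.39, −3.88 and −0.34 kb and the Cldn3 peak at +16.31 kb are present in all 3 compartments.

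At Cldn3, a sealing claudin of the intestine, the strongest site lay 16.31 kb downstream of the TSS and was nearest to the TSS of Abhd11. Its pooled −log10 q was 102 for colon, 97.5 for SI villus and 41.0 for SI crypt, and each of the 3 intervals lay over an ATAC-seq peak. It was the VDR site called by most single samples. Fold enrichment was 8.02, 12.6, 8.24 and 12.0 in colon (mean 10.2 ± 2.42, SD, n = 4) and 13.4, 11.6, 10.1 and 8.74 in SI villus (mean 10.97 ± 2.01, SD, n = 4). In SI crypt it was 4.06, 9.86 and 8.39 in replicates 1, 2 and 4, with no peak in replicate 3. Colon and SI villus overlapped almost entirely, and SI crypt replicate 1 was the lowest sample. This was the only claudin VDR region that every sample of 2 compartments called and so the only one in the limma comparison of 270 regions between colon and SI villus. Its log2 difference, colon minus SI villus, was 0.21 (SE 0.211; limma adjusted p = 0.579), where 4.44% of the regions tested passed an adjusted p of 0.05. The sign of that difference turned without centering of sample medians (−0.12; adjusted p = 0.869). With SI crypt replicate 3 left out, colon exceeded SI crypt by 0.68 (SE 0.292; adjusted p = 0.204), and the same omission gave −0.47 for SI crypt against SI villus (SE 0.329; adjusted p = 0.874). None of these differences passed the threshold.

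The neighboring Cldn3 site at +15.14 kb had pooled −log10 q of 42.3 in colon and 39.0 in SI villus, with 7.25- and 7.61-fold enrichment in colon replicates 2 and 4 and 8.07- and 8.85-fold in SI villus replicates 1 and 2. SI crypt had no pooled peak there, and its replicate 1 alone called one (6.79-fold). A site 26.01 kb downstream had −log10 q of 19.0, 26.3 and 38.1. Upstream, at −18.68 kb and within the shared part of the Cldn3 and Cldn4 windows, a site reached 39.3 in colon and 11.2 in SI villus, with 5.33-, 10.4- and 7.66-fold enrichment in colon replicates 1, 2 and 4. The Cldn3 promoter peak itself was weaker, at 6.45, 8.95 and 11.4, and was called by 1, 1 and 2 samples, the SI crypt call being replicate 1.

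Cldn4, a barrier claudin encoded next to Cldn3 on the opposite strand, had its own promoter peak 0.84 kb into the gene, at −log10 q of 8.31, 6.43 and 14.0 in colon, SI crypt and SI villus. It was called by colon replicate 3 (4.49-fold), SI crypt replicate 1 (4.48-fold) and SI villus replicates 1 and 4 (5.21- and 5.56-fold). Without SI crypt replicate 1, no single SI crypt sample called a VDR peak at the promoter of Cldn3, Cldn4, Cldn7, Cldn12 or Cldn23.

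At Cldn7, a claudin found along the lateral membrane that associates with Epcam, the strongest site lay 4.21 kb downstream of the TSS in an intron of Rai12. Its pooled −log10 q was 78.3 for colon, 33.2 for SI villus and 32.1 for SI crypt, with ATAC-seq overlap in each. All 4 colon samples called it, at 4.57-, 4.13-, 4.16- and 3.16-fold (mean 4.01 ± 0.601, SD). SI crypt replicates 1, 3 and 4 called it at 4.75-, 3.31- and 3.48-fold, and SI villus replicates 3 and 4 at 2.84- and 3.58-fold. The ranges overlapped. With SI crypt replicate 2 left out, the colon minus SI crypt difference was 0.05 (log2; SE 0.318; adjusted p = 0.963). Unlike the strong Cldn15 and Cldn3 sites, this sequence held no DR3 stretch above 8 of 12 letters.

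The Cldn7 promoter peak, 0.53 kb into the gene, ran the other way in the pooled lists, at −log10 q of 43.6 for SI villus, 19.5 for colon and 6.85 for SI crypt. SI villus replicates 1 and 2 called it at 8.07- and 8.62-fold, SI crypt replicate 1 at 3.40-fold, and no colon sample called it although the pooled colon list held it.

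Cldn2, a cation- and water-permeable claudin typical of crypts, had VDR peaks in SI crypt at −14.36, −6.18, −2.08 and +12.61 kb, with −log10 q of 4.20, 7.91, 10.4 and 5.44. The −2.08 kb peak was called by SI crypt replicate 1 (7.07-fold) and the −6.18 kb peak by replicate 4 (6.11-fold). In colon only the −14.36 kb site was present (−log10 q 8.65, replicate 4 at 8.05-fold), and it held the other exact DR3 element of the set, 58 bp from the summit, in a stretch nearer to the TSS of Ripply1. SI villus had no pooled peak, and its replicate 1 called the −2.08 kb site at 6.55-fold. No Cldn2 site was called by more than 1 sample of a compartment.

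Cldn12, the other claudin linked to intestinal calcium, had weak peaks. Its promoter region held pooled peaks of −log10 q 4.68 in colon and 4.41 in SI villus at +0.72 kb and 3.54 in SI crypt at +0.19 kb, of which SI crypt replicate 1 alone made a single-sample call (4.74-fold). Its strongest peak was in colon at −5.27 kb (14.3; replicate 2 at 7.22-fold). For Cldn23, a less studied claudin of differentiated epithelium, the promoter peak at +0.29 kb had −log10 q of 5.32, 9.09 and 10.9 and was the strongest in SI crypt and SI villus, while in colon the −15.96 kb peak stood slightly higher (5.80). The promoter peak was called by colon replicate 4 (3.38-fold), SI crypt replicate 1 (5.46-fold) and SI villus replicates 1 and 4 (5.04- and 5.05-fold).

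**Figure D3:**
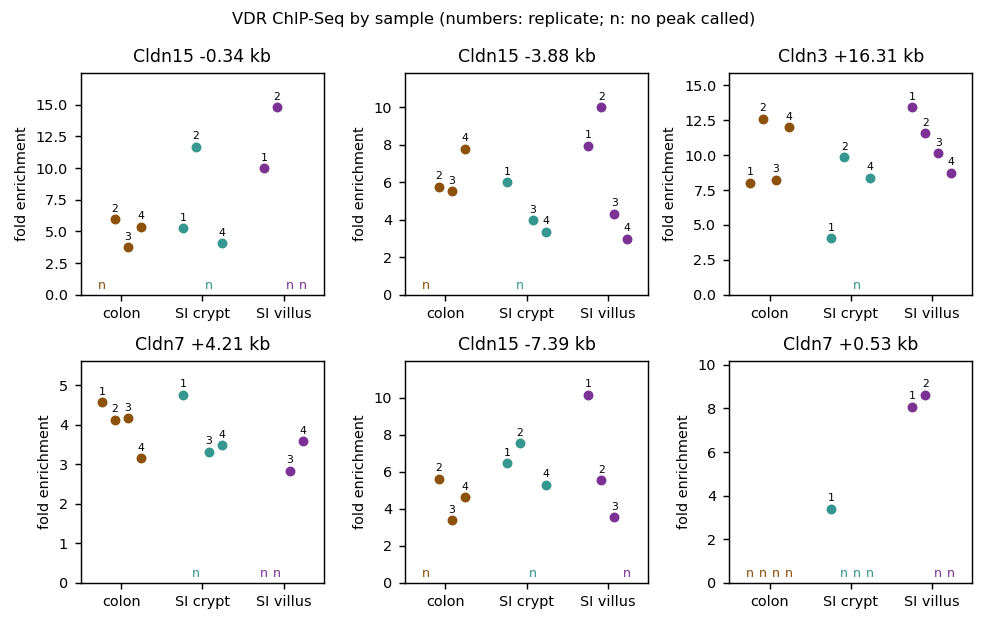
MACS2 fold enrichment of VDR in each single sample at the 6 claudin sites of highest pooled −log10 q, with compartments by color. The number beside a point is the replicate and n marks a sample that called no peak. At the Cldn3 site 16.31 kb downstream the colon values (8.02 to 12.6) and SI villus values (8.74 to 13.4) overlap.

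Counting calls per sample covered every VDR region. A two-sided Fisher's exact test of called against not called samples, 4 against 4, gave 0 regions with an adjusted p under 0.05 among 28286 (colon against SI crypt), 32103 (colon against SI villus) and 22279 (SI crypt against SI villus) regions. At an unadjusted p under 0.05 there were 200, 247 and 29 regions, and limma found 13, 12 and 0 of 240, 270 and 359 regions at an adjusted p under 0.05 (5.42%, 4.44% and 0.00%; 32 unadjusted in the last). With the replicate number as a block, which pairs the SI crypt and SI villus samples, limma called 4 of the 359, 3 of them higher in SI crypt, and none lay in a claudin window. The smallest p that the Fisher design allows is 0.0286. Adjusted over this many regions, that floor stays above 0.05 unless most regions reach it. The counts of 0 were therefore set by the design and do not show that binding was alike. No claudin region reached the floor, since none was called in every sample of a compartment and in no sample of another. Across all regions, 0.580% were called in every colon and no SI crypt sample and 0.127% the reverse, 0.480% in every colon and no SI villus sample and 0.290% the reverse, and 0.0224% in every SI crypt and no SI villus sample and 0.108% the reverse.

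VDR sites and open chromatin coincided in part. Of the claudin VDR peaks, 14 of 38 for colon (36.8%, Wilson 95% interval 23.4 to 52.7), 12 of 24 for SI crypt (50.0%, 31.4 to 68.6) and 13 of 25 for SI villus (52.0%, 33.5 to 70.0) overlapped an ATAC-seq peak of the same compartment by at least 1 bp. Over all VDR peaks the shares were 41.9%, 50.4% and 56.3%, inside each interval. The intervals cover counting error only. The strongest Cldn3 and Cldn7 peaks were among those that overlapped, and the strongest Cldn15 peak was not.

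The motif content of the 200 bp around each summit was compared with that of all VDR summits of the compartment, on both strands. An exact DR3 was present at 2 of 38 claudin summits in colon (5.26%, against 2.05% of all 22882) and 2 of 24 in SI crypt (8.33%, against 2.31% of 12702), these being the Cldn15 +8.18 kb and Cldn2 −14.36 kb sites in both. In SI villus it was present at 0 of 25, which allows a share of up to 12.0%, against 1.69% of 18078. With at most 1 mismatched letter the shares were 13.2%, 12.5% and 4.0% against 10.4%, 9.68% and 8.25% of all, resting on 5, 3 and 1 claudin summits. With up to 2 mismatched letters they were 50.0%, 41.7% and 48.0% of claudin summits against 35.2%, 29.8% and 28.9% of all, and both of these settings were chosen after the data were seen. Of the 42 merged sites, 19 held a stretch with at least 10 of 12 letters and 4 with at least 11. The GATA motif AGATAA was present at 7.89%, 8.33% and 8.0% of claudin summits, against 7.50%, 6.94% and 6.85% of all summits. The HNF4A motif CAAAGTCCA and the CDX2 motif TTTATGG were at 0 claudin summits in each compartment, which allows up to 7.89%, 12.5% and 12.0%, against 0.935%, 0.858% and 0.852% of all summits for HNF4A and 2.89%, 1.61% and 1.67% for CDX2. A match describes the letters in the window and not the binding of a factor.

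ATAC-seq peaks lay in the windows of 7 of 9 claudins in colon and of all 9 in SI crypt and SI villus (77.1%, 85.4% and 82.1% of all genes), and colon lacked them at Cldn1 and Cldn2. The windows held 45, 75 and 55 ATAC-seq peaks. Summed gene by gene as for VDR, the density was 8.23, 13.4 and 9.91 per 100 kb against 2.93, 5.17 and 4.61 over all genes. With equal numbers of strongest peaks the counts became 45, 49 and 38. At least 1 single sample called 41, 66 and 51 of them (83.0%, 81.3% and 84.4% of all), and all 3 samples called 27, 29 and 29 (42.1%, 33.6% and 40.5%). The peaks formed 82 sites, 37 of them (45.1%) present in all 3 compartments, against 24.9% of all ATAC-seq sites.

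Promoters were open at 6, 8 and 7 of the 9 claudins in colon, SI crypt and SI villus (49.0%, 55.6% and 52.2% of all genes). The promoters of Cldn3, Cldn7, Cldn12 and Cldn23 were open in every sample of all 3 compartments. At Cldn23 (−0.12 kb) the −log10 q was 94.7, 52.1 and 58.8, at Cldn7 (+0.62 kb) 73.5, 33.7 and 28.9, at Cldn3 (−0.33 kb) 69.7, 34.5 and 40.9, and at Cldn12 (+0.06 kb) 48.1, 34.5 and 54.2. The Cldn4 promoter (−0.08 kb) was weaker, at 24.2, 5.12 and 15.1, with calls in 3, 1 and 3 samples.

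The remaining promoters differed between compartments in the number of samples that called them. The Cldn15 promoter peak (−0.68 kb) was called by 0 colon, 2 SI crypt and 3 SI villus samples, with pooled −log10 q of 6.46 and 24.1 in the latter. The Cldn8 promoter peak (+0.07 kb), at a claudin that tightens the barrier of distal segments, was called by 2 colon, 2 SI crypt and 0 SI villus samples (4.49 and 9.14 in the pooled lists). Cldn1, a barrier claudin best known from skin, had promoter peaks in SI crypt at −0.05 and +0.20 kb (13.3 and 10.8, 1 sample each) and in SI villus at −0.05 kb (5.19, no single sample). Cldn2 had no promoter peak in any compartment. Its most often called sites were +12.30 and +13.42 kb, each called by 3 of 3 SI crypt samples and no colon sample, and in SI villus by 1 and 2 samples.

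Some claudin ATAC-seq regions were called in every sample of a compartment and in none of another. With 3 against 3 samples an exact test cannot go below p = 0.1, so these are descriptions. Between colon and SI crypt, 2 of 76 claudin regions were called in all colon samples only and 8 in all SI crypt samples only, which is 2.63% and 10.5% against 2.12% and 9.10% of all regions. Between colon and SI villus the counts were 1 and 5 of 61 (1.64% and 8.2% against 2.06% and 11.4%), and between SI crypt and SI villus 5 and 1 of 80 (6.25% and 1.25% against 3.52% and 3.28%).

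When each sample contributed the same number of strongest peaks, 6 of these 22 separations remained. The colon-over-crypt ones were Cldn3 −2.92 kb (3.43-, 3.36- and 3.64-fold in colon) and Cldn23 −15.98 kb (7.91-, 13.4- and 15.9-fold in colon). The pooled SI crypt list nevertheless held a peak at both, with −log10 q of 6.48 and 3.81 and no single-sample call. An intronic Cldn15 region at +4.21 kb (5.95-, 5.92- and 7.06-fold in SI crypt) separated SI crypt from colon. The intergenic Cldn8 region at −13.34 kb was called in colon (6.56-, 9.01- and 11.6-fold) and in SI crypt (7.80-, 6.13- and 7.36-fold) and in no SI villus sample, which gives 2 of the 6. The Cldn7 region at −8.82 kb was called in SI villus (6.96-, 8.45- and 8.47-fold) and in no colon sample. In all, the Cldn8 window held 6 colon, 8 SI crypt and 1 SI villus ATAC-seq peaks, and the 1 shared by all 3 compartments, at −20.23 kb, was called by every sample.

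**Figure D4:**
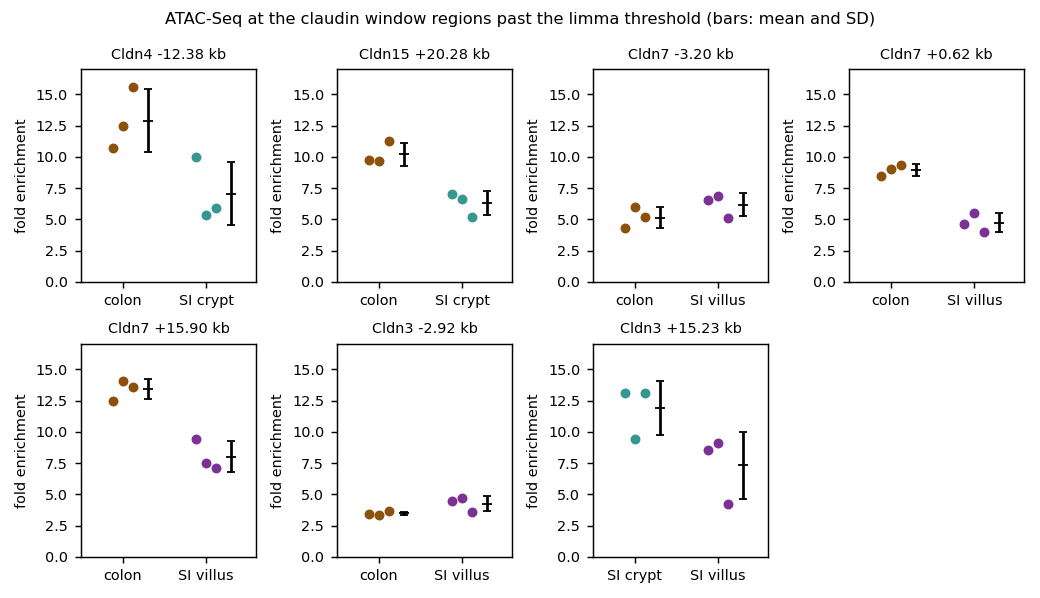
ATAC-seq fold enrichment per sample at the claudin regions that differed between compartments by limma, with every sample shown as a point and the mean and SD (n = 3) as bars beside the points. At Cldn7 +0.62 kb the 3 colon samples (8.45 to 9.36) lie above the 3 SI villus samples (3.99 to 5.51).

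Fold enrichment could be compared by limma where every sample of both compartments called a region. Of the claudin regions, 19 entered the comparison of colon with SI crypt, 22 that of colon with SI villus and 18 that of SI crypt with SI villus, with median log2 differences of −0.02, 0.15 and 0.21 after centering of sample medians. At an adjusted p under 0.05, 2 were called between colon and SI crypt (23.2% of all 12248 regions tested were), 4 between colon and SI villus (24.7% of 12452) and 1 between SI crypt and SI villus (6.90% of 16317). By direction, the 2 regions were higher in colon than in SI crypt (9.24% of all regions), 2 were higher in colon and 2 in SI villus (9.93% and 14.8%), and 1 was higher in SI crypt than in SI villus (3.14%).

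The Cldn4 region at −12.38 kb, between Cldn4 and Cldn3, stood higher in colon (10.7-, 12.5- and 15.6-fold; mean 12.9 ± 2.49, SD, n = 3) than in SI crypt (9.99-, 5.31- and 5.87-fold; 7.06 ± 2.55). Every colon sample lay above every SI crypt sample, and the log2 difference was 0.79 (SE 0.191; limma adjusted p = 0.00651). The Cldn7 promoter region at +0.62 kb stood higher in colon (8.45-, 8.99- and 9.36-fold; 8.93 ± 0.456) than in SI villus (4.66-, 5.51- and 3.99-fold; 4.72 ± 0.762), without overlap, by 0.72 (SE 0.166; limma adjusted p = 0.00516). This region overlaps the VDR promoter peak whose pooled −log10 q was higher in SI villus than in colon. These 2 differences kept their call under every alternative run. No alternative made the tag extension equal between samples.

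The other 5 called regions lost the call under at least 1 alternative. A region 20.28 kb from the Cldn15 TSS, at an exon of Znhit1 and nearest to the TSS of Plod3, was higher in colon than in SI crypt by 0.59 (SE 0.171; limma adjusted p = 0.0195). A region 15.90 kb from the Cldn7 TSS, at an exon of Rai12 and nearest to the TSS of Ctdnep1, was higher in colon than in SI villus by 0.54 (SE 0.161; limma adjusted p = 0.0213). Each lost its call on leaving out either of 2 samples. Without colon replicate 3 or SI crypt replicate 3 the limma adjusted p of the first was 0.0503 and 0.0929, and without colon replicate 2 or SI villus replicate 2 that of the second was 0.0611 and 0.0894. The intergenic regions Cldn7 −3.20 kb (−0.48, SE 0.161, limma adjusted p = 0.0357) and Cldn3 −2.92 kb (−0.50, SE 0.164, limma adjusted p = 0.0331) were higher in SI villus than in colon with centered medians. At Cldn7 −3.20 kb the samples overlapped, at 4.27-, 5.95- and 5.17-fold in colon and 6.54-, 6.85- and 5.12-fold in SI villus. At Cldn3 −2.92 kb SI villus stood at 4.47-, 4.72- and 3.59-fold, the lowest of them below the highest colon sample (3.64-fold). Without centering, their limma adjusted p was 0.401 and 0.333. The Cldn3 region at +15.23 kb, which underlies the VDR site at +15.14 kb, was higher in SI crypt (13.1-, 9.44- and 13.1-fold) than in SI villus (8.57-, 9.14- and 4.26-fold) by 0.70 (SE 0.204; limma adjusted p = 0.0426), and without centering the adjusted p was 0.176. For the last 3, leaving out single samples also lost the call in 5 of 6 cases each, among them SI villus replicate 3.

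The other parts of the tight junction were counted in the same way. All 7 of the partner genes Tjp1, Tjp3, Ocln, Marveld2, Marveld3, Cgn and F11r, which encode scaffolds, occludin-family proteins and an adhesion molecule, had a VDR peak in their window and an open promoter in every compartment, where 63.1%, 51.5% and 56.9% of all genes had the first and 49.0%, 55.6% and 52.2% the second. The open promoter of Tjp3 was called by 0, 1 and 0 single samples, and the VDR peak nearest to the TSS was called by 2 samples or more for 3, 0 and 5 of the 7 in colon, SI crypt and SI villus. Of the 14 other claudin genes of the annotation, 9, 5 and 3 had a VDR peak in their window in colon, SI crypt and SI villus, and 4, 3 and 2 had one nearest to their own TSS. The TSS of Cldn13, 1 of the 14, lies in the Cldn4 window. Among the 9 claudins examined here, 6, 7 and 6 had a VDR peak nearest to their own TSS. The share of all genes with a nearest VDR peak was not computed, so these nearest-peak counts do not set any of the gene lists apart. Of the other claudins, Cldn11, known from myelin and testis, had the strongest, at −log10 q of 46.4, 52.0 and 116, although its promoter was open in 1 SI crypt sample only. An open promoter together with a nearest VDR peak in all 3 compartments was the pattern of Cldn3, Cldn4, Cldn7, Cldn12 and Cldn23 in the pooled lists, and Cldn15 departed from it only by its colon promoter. In SI crypt, the nearest VDR peaks of Cldn3, Cldn4, Cldn12 and Cldn23 were called by replicate 1 alone, so that without it only Cldn7 of these 5 kept a single-sample call, and in SI villus that of Cldn12 was called by no single sample.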

How the data were processed

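VDR ChIP-seq (12 samples) and ATAC-seq (9 samples) entered as peak lists, which the authors deposited as 1 pooled list per compartment and assay and 1 list per sample. Per the labels and the paper's methods, the authors removed adapters (NGmerge for the VDR reads; cutadapt 1.9.1 is also in their processing notes), aligned reads to mm9 with Bowtie2 2.2.6 and SAMtools 0.1.19, marked duplicates with Picard 2.18.27, called peaks with MACS2 2.1.0.20150731 at q 0.05 without a control library, and filtered blacklisted regions with bedtools 2.17.0. The deposited columns give for each peak its position, the −log10 q and −log10 p value, the fold enrichment (a ratio to the local background) and the pileup, a signal of stacked fragments. The deposited pooled lists carry intervals re-centred on the summit with their length kept. VDR peaks were called on read-pair fragments and ATAC-seq peaks on shifted and extended tags. The authors' DiffBind comparison tables between compartments hold fold changes and p-values and were not used.

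Each claudin was given its mm9 gene body plus 30 kb on each side, and a peak was assigned by an overlap of at least 1 bp, also for single-sample support. The members and the gene lists were chosen with earlier results of these data known, and 2 genes of the lists are not reported here. All members were named, and a peak was described singly if it was the strongest VDR peak of its gene, lay within 1 kb of the TSS or passed the limma threshold; further sites named by their −log10 q, their sample calls or a DR3 match were chosen after their values were seen. Regions called in every sample of both compartments were compared with limma 3.58.1 (R 4.3.3) on log2 fold enrichment with centred sample medians, and p-values were adjusted by Benjamini-Hochberg over all regions tested. VDR calls were compared by a two-sided Fisher's exact test over samples. Python 3.11.15, numpy 2.4.6, scipy 1.17.1 and matplotlib 3.10.9 were used, and the limma and overlap steps were tested on simulated data. SI crypt and SI villus VDR samples of the same replicate number deviated together (r = 0.303 to 0.697 over 359 regions), so a fit with the number as a block was also run. In the other comparisons r ranged from −0.162 to 0.223.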

Additional observations from a re-analysis of the deposited data

Results flagged for a closer look

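Among 10 groups of 4 values tested for a sample far from the others, 1 exceeded Dixon's 95% limit, and chance marks about 1 in 20 such groups. Colon VDR replicate 1 called 8 peaks in the claudin windows, whereas replicates 2, 3 and 4 called 13 each. Because those counts are tied, Dixon's ratio is 1.0 whatever the remaining value, so the flag does not measure how far replicate 1 lies. As a share of its own list, replicate 1 was the highest colon sample (0.4545%, against 0.2594%, 0.2118% and 0.1287% in replicates 2, 3 and 4). That sample also had the shortest colon list (1760 peaks) and the fewest fragments after duplicate removal of the colon samples (9127982), and the part of depth in the low count was not tested.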

How the results depend on the processing

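Counts of claudin peaks depended on the window and list. With 10 kb on each side, VDR peaks numbered 24 in colon and 15 in SI villus, and ATAC-seq peaks 21, 33 and 28 in colon, SI crypt and SI villus. Peaks called by at least 2 samples numbered 12, 8 and 12 for VDR and 48 for SI crypt ATAC-seq. Equal list lengths gave 24 colon VDR and 49 SI crypt ATAC-seq peaks. Requiring the claudin TSS to be nearest left 15 SI villus VDR peaks and 28, 49 and 34 ATAC-seq peaks. Leaving out SI crypt VDR replicate 1 left 9 peaks with a single-sample call, an alternative for the pooled count chosen after the data were seen, and over the samples left out in turn that number ranged from 9 to 21. With at least 50% of the VDR peak covered, 29.2% of SI crypt and 32.0% of SI villus peaks lay in ATAC-seq peaks.

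Without centring, limma called 1 VDR region in each comparison with colon, and 1660, 1129 and 43 ATAC-seq regions, of which 1028, 915 and 27 were higher in the first-named compartment (colon, colon, SI crypt), against 1132 of 2845, 1237 of 3074 and 512 of 1126 with centring. The centring shift moved the Cldn3 +16.31 kb VDR difference from 0.21 to −0.12. Leaving out samples in turn gave 0 to 23 VDR calls for colon against SI crypt and 0 to 36 for colon against SI villus, the highest without colon replicate 1 in both. The count was 0 without colon replicate 3 or SI crypt replicate 2 in the first and without colon replicate 2 or 4 or SI villus replicate 1 in the second. It gave 246 to 1198 ATAC-seq calls for SI crypt against SI villus, with 246 without SI villus replicate 2, 600 without SI villus replicate 1, and 687 and 586 without SI crypt replicates 1 and 3. The replicate block gave 4 VDR calls between SI crypt and SI villus, none in a claudin window, and log2 of −log10 q gave 1. In the other comparisons the block gave 18 and 15 VDR calls with colon and 2750, 2448 and 1151 ATAC-seq calls. It ended the calls at Cldn7 −3.20 kb (adjusted p = 0.0603) and Cldn3 −2.92 kb (adjusted p = 0.0649) between colon and SI villus and changed no other claudin call.

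With lists of equal length, ATAC-seq regions called in every colon and no SI crypt sample numbered 3146 (1761 with all peaks) and the reverse 2615 (7555). Those in every colon and no SI villus sample numbered 2936 (1552), the reverse 3118 (8537), and those in every SI crypt and no SI villus sample 1787 (3239). Of 74 alternatives for the log2 differences of claudin regions, 46 kept direction and side of the threshold and 27 kept the direction only. The depth of the single VDR samples limits calls at weak sites, so an absent single-sample call says only that no peak was detected at that depth.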
